A study of Mus musculus with 9 samples.

Results

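The epithelial oxidases and peroxide enzymes considered here are 7 genes: *Duox2* and *Duoxa2*, *Nox1* and *Noxo1*, *Cyba*, *Nos2* and *Gpx2*. They were chosen by name, and each was read through the probe sets annotated to that gene alone, by its current or a former symbol. Of the 7 genes, 5 have such a probe set (1 each), among 18193 genes with one on the array. *Duox2* and *Nox1* were not analysed here. Of the 5, *Duoxa2*, *Noxo1*, *Gpx2* and *Cyba* were bright enough to be tested, among 11453 tested genes, and *Nos2* was not.

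The arrays (Affymetrix, 1 per mouse) measured whole large intestine, proximal and distal together, from 3 *Eeyore*, 3 *Winnie* and 3 wild-type mice, all labelled male and 8 wk of age. *Eeyore* mice carry a missense change that replaces serine by proline in the D4 domain of Muc2, the gel-forming mucin of goblet cells, on a mixed C57BL/6 and NOD-SCID background. *Winnie* mice carry a change of cysteine to tyrosine in the D3 domain of Muc2 on C57BL/6, and the wild-type mice are C57BL/6. Both lines descend from C57BL/6 founders treated with N-ethyl-N-nitrosourea, and the *Eeyore* allele and its mixed background cannot be told apart. The labels and the sex-linked transcripts disagree: *Xist* had signals of 65.7 to 107 in *Eeyore*, 9.13 to 61.8 in *Winnie* and 7371 to 8261 in wild-type mice, and Y-linked *Kdm5d* 560.1 to 665 in *Eeyore*, 519 to 667 in *Winnie* and 47.5 to 64.6 in wild-type mice. In every comparison of a mutant strain with wild-type below, the difference in genotype and that in sex-linked transcripts cannot be told apart. *Eeyore* and *Winnie* mice do not differ in this way, with low *Xist* and high *Kdm5d* in both.

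NADPH oxidases move electrons from NADPH across a membrane onto oxygen. Nox1, the form of colonic epithelium, makes superoxide and needs p22phox (the product of *Cyba*) beside it in the membrane and the organizer Noxo1 in the cytosol, whereas Duox2 makes hydrogen peroxide and needs its maturation factor Duoxa2 to leave the endoplasmic reticulum. p22phox serves several oxidases, among them the phagocyte oxidase built on gp91phox (*Cybb*), so that in whole tissue its transcript comes from epithelial and immune cells together. Nos2 makes nitric oxide from arginine, and Gpx2, the gastrointestinal glutathione peroxidase of crypt epithelium, removes peroxides.

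Promoters are shown for the 3 genes whose signal rose in a mutant strain, *Gpx2*, *Noxo1* and *Cyba*, so that the genes that moved can be read beside their values. Each is the 300 bases from 250 before to 50 after the gene's start, 5′ to 3′, from RefSeq on GRCm38.p6. The table holds a promoter for 6 of the 7 genes. That of *Gpx2* is chr12:76795505-76795804 (minus strand), that of *Noxo1* chr17:24695984-24696283 (plus strand) and that of *Cyba* chr8:122432891-122433190 (minus strand). Capitals mark matches, on either strand, to the NF-kappaB motif (GGG, any 5 bases, CC).
Gpx2: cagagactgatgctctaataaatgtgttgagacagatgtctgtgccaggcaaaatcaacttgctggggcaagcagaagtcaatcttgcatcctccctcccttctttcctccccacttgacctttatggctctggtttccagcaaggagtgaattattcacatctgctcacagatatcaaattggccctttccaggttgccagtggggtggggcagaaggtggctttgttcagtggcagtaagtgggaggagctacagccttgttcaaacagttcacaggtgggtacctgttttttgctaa
Noxo1: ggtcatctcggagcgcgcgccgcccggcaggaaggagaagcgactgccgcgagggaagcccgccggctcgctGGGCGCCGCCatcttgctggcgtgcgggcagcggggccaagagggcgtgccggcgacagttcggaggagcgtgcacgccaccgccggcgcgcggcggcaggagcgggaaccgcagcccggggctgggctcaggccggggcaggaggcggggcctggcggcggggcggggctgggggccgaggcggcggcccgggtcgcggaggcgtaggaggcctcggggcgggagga
Cyba: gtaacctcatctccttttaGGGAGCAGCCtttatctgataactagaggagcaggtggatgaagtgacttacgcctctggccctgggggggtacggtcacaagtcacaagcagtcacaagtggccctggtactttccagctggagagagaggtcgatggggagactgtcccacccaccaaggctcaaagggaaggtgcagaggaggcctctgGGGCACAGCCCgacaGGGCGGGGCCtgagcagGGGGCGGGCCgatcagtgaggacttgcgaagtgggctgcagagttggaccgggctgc
The 3 promoters differ in composition: G and C make up 48.3% of the *Gpx2* promoter, 80.3% of the *Noxo1* promoter and 60.7% of the *Cyba* promoter, against a median of 52.7% over 32851 promoters. The NF-kappaB motif had 5 matches in the *Cyba* promoter, 2 of them overlapping, 1 in that of *Noxo1*, starting at position -178 from the gene's start, and 0 in that of *Gpx2*. So short a motif also has a match in 50.8% of all promoters. On either strand, none of the 3 windows held the letters of a STAT motif (TTCNNNGAA, in 8.3% of all promoters), of an interferon-stimulated response element (TTTC, any 2 bases, TTTC, in 3.44%) or of an antioxidant response element (TGACNNNGC, in 12.4%).

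*Gpx2* rose in both mutant strains. Its signal, a brightness in the array's linear units, was 11242, 12073 and 10769.5 in *Eeyore* mice 1, 2 and 3, 9742, 15065 and 10243 in *Winnie* mice, and 5790.0, 6091 and 6606 in wild-type mice. Every mutant mouse stood above every wild-type mouse, and *Winnie* mouse 2 was the highest of all 9. The mean was 11361 ± 659.8 in *Eeyore*, 11683 ± 2939 in *Winnie* and 6162 ± 412 in wild-type mice (SD, n = 3 each). On the log2 scale the difference from wild-type was 0.88 ± 0.14 (SE) in *Eeyore* mice, a 1.84-fold higher signal, with an adjusted p of 0.000925 in limma's test. In *Winnie* mice it was 0.90 ± 0.14, or 1.86-fold, with an adjusted p of 0.0014. The strains differed by -0.01 ± 0.14 (*Eeyore* minus *Winnie*, adjusted p = 0.978). RefSeq also lists a transcribed pseudogene of *Gpx2*, and the signal of gene and pseudogene was not separated.

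*Noxo1*, the cytosolic organizer of Nox1, rose in *Eeyore* mice. It had signals of 3882, 4513 and 4856 in *Eeyore* mice, 2962, 4128 and 3320.5 in *Winnie* mice and 2946, 2925 and 2489 in wild-type mice. The *Eeyore* mice lay clear of the wild-type mice, while the lowest *Winnie* mouse lay just above the highest wild-type mouse. The log2 difference from wild-type was 0.66 ± 0.14 (SE) in *Eeyore* mice (1.58-fold, adjusted p = 0.00408 in limma's test) and 0.31 ± 0.14 in *Winnie* mice (adjusted p = 0.128, above the threshold of 0.05). *Noxo1* is therefore not called in *Winnie* mice, and the difference between the strains, 0.36 ± 0.14 (*Eeyore* minus *Winnie*), had an adjusted p of 0.24.

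*Cyba*, the membrane subunit shared by several oxidases, rose in *Eeyore* mice and was not called in *Winnie* mice. Its signals were 3843, 5043 and 5279 in *Eeyore* mice, 3055, 3633 and 2362 in *Winnie* mice and 2935, 3202 and 2808 in wild-type mice. The *Eeyore* mice did not overlap either other group, and the *Winnie* mice lay on both sides of wild-type. The log2 difference from wild-type was 0.65 ± 0.16 (SE) in *Eeyore* mice (1.57-fold, adjusted p = 0.0103 in limma's test) and -0.003 ± 0.16 in *Winnie* mice (adjusted p = 0.992). Between the strains it was 0.65 ± 0.16 (*Eeyore* minus *Winnie*), with an adjusted p of 0.0575, just above the threshold. Without *Eeyore* mouse 1 the adjusted p was 0.0175, and without *Winnie* mouse 2 it was 0.0244, so that this call turns on 1 mouse.

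*Duoxa2*, which lies beside *Duox2* on chromosome 2, had signals of 133, 178 and 252 in *Eeyore* mice, 136, 235 and 113 in *Winnie* mice and 182, 139 and 166 in wild-type mice. Both mutant groups spanned the wild-type range and were more spread than it. The log2 difference from wild-type was 0.17 ± 0.34 (SE) in *Eeyore* mice (adjusted p = 0.74) and -0.07 ± 0.34 in *Winnie* mice (adjusted p = 0.909). These errors are larger than those of the other 3 tested genes, and no difference was detectable at this spread.

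The probe set of *Nos2* was dim in every mouse. It read 2.49, 4.3 and 55.9 in *Eeyore* mice, 12.997, 20.6 and 2.63 in *Winnie* mice and 14.5, 15.5 and 9.04 in wild-type mice. All of these but that of *Eeyore* mouse 3 lie below 41.1, the highest 25th percentile of any array, where values have no useful order. *Nos2* was under the brightness filter and has no test. With the filter removed, its adjusted p lay at 0.845 in *Eeyore* and 0.874 in *Winnie* mice.

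**Figure D1:**
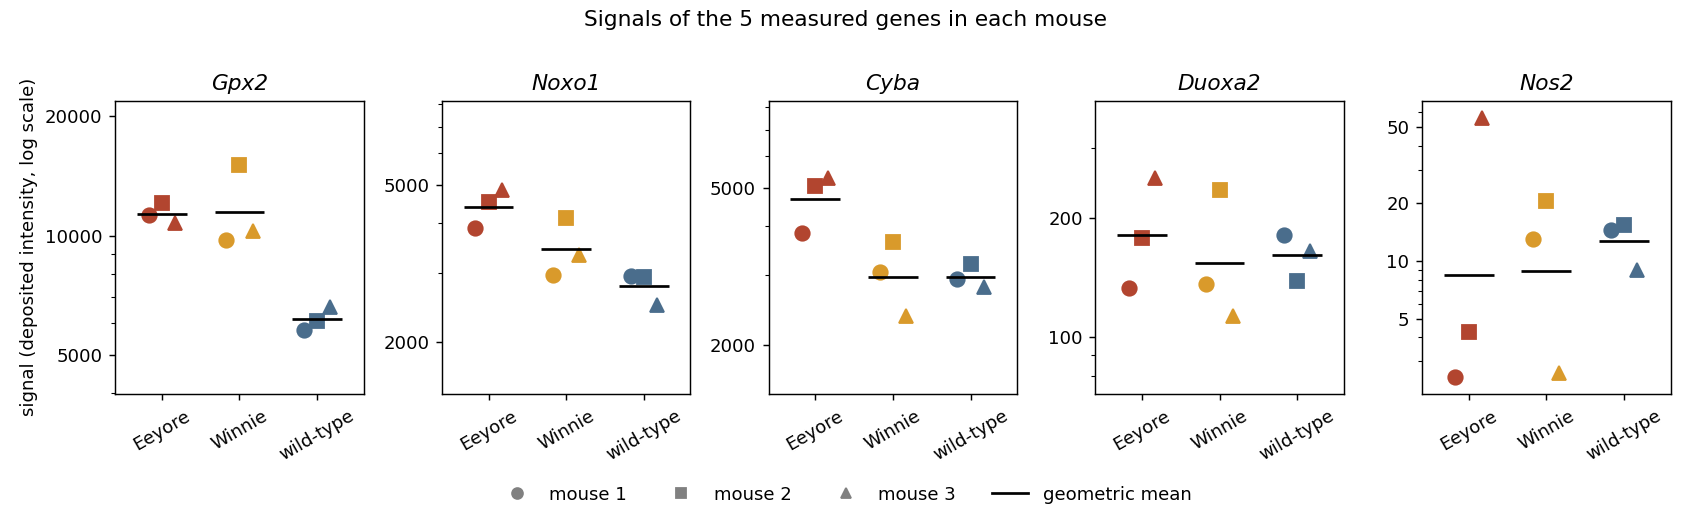
Signal of each measured gene in each mouse (deposited intensity, log scale, each panel with its own range), with *Eeyore* left, *Winnie* in the middle and wild-type right. Symbols are single mice and the bar is the geometric mean of 3 mice. *Gpx2* and *Noxo1* are above every wild-type mouse in all 6 mutant mice, for *Noxo1* only just so in *Winnie* mouse 1 (2962 against 2946). *Cyba* is above wild-type in all 3 *Eeyore* mice, and the groups overlap for *Duoxa2* and *Nos2*.

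Of the 4 tested genes, 3 were higher in *Eeyore* mice and 1 was higher in *Winnie* mice, and 0 were lower in either. Over all 11453 tested genes, 14.0% were higher and 16.6% lower in *Eeyore* mice, and 11.3% were higher and 11.9% lower in *Winnie* mice. Between the strains 0 of the 4 genes were called, where 1.29% of all genes were higher and 1.30% lower in *Eeyore* than in *Winnie* mice. At an unadjusted p under 0.05, *Noxo1* and *Cyba* would have been called between the strains by limma (p = 0.0233 and 0.00151, permutation p = 0.2 and 0.1). So would *Noxo1* in *Winnie* against wild-type mice (limma p = 0.0445, permutation p = 0.1). The median log2 difference of the 4 genes was 0.66 in *Eeyore* and 0.15 in *Winnie* mice, against -0.04 and -0.05 over all tested genes. A count over 4 genes chosen by name describes these 4 genes only. In the exact permutation test over mice, 3 against 3 cannot give a two-sided p below 0.1, and each call above had that value.

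Signals of markers of epithelium and smooth muscle differed between the groups. The summed signal of 10 epithelial markers was 235013 to 260735 in *Eeyore*, 224770.0 to 233121 in *Winnie* and 182101 to 188617 in wild-type mice, with 7 of the 10 called higher in *Eeyore* and 4 in *Winnie* mice. All 8 smooth muscle markers were lower in both strains (summed signal 56582 to 62147 in *Eeyore*, 69685 to 74419.5 in *Winnie* and 149375 to 155101 in wild-type mice). In whole tissue, more or fewer cells of a type and more or less RNA per cell cannot be told apart. The mean log2 signal of the 10 epithelial markers was 0.37 higher in *Eeyore* and 0.26 higher in *Winnie* than in wild-type mice, so the members were also read with each array centred on these markers, a setting chosen after the values were seen. On that scale *Gpx2* was still called in both strains, at 0.52 ± 0.16 (SE, adjusted p = 0.0222) in *Eeyore* and 0.64 ± 0.16 (adjusted p = 0.012) in *Winnie* mice. *Noxo1* missed the threshold in *Eeyore* mice at 0.30 ± 0.15 (adjusted p = 0.121), as did *Cyba* at 0.28 ± 0.17 (adjusted p = 0.194). The rise of *Gpx2* was thus larger than the mean of the 10 markers, though not larger than each of them: *Krt20*, a keratin of mature surface cells, differed from wild-type by 0.77 in *Eeyore* and 0.94 in *Winnie* mice.

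**Figure D2:**
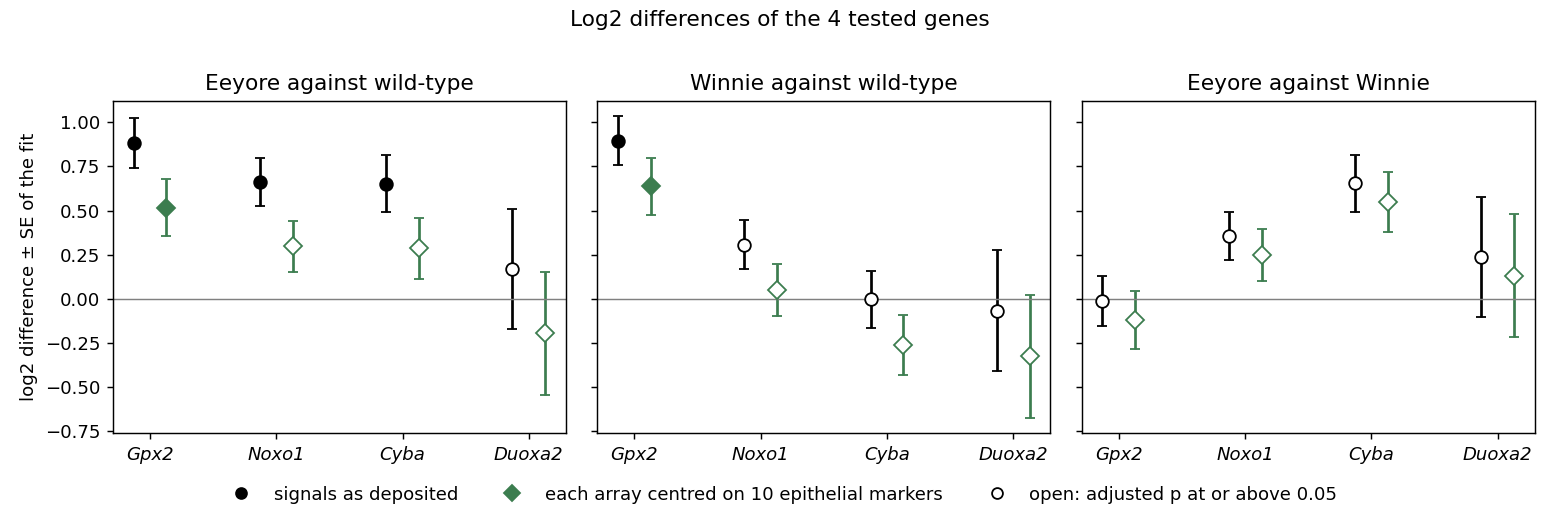
Log2 difference (± SE of the fit, n = 3 mice per group) of the 4 tested genes in each comparison, from the signals as deposited (circles) and with each array centred on 10 epithelial markers (diamonds). Filled symbols have an adjusted p under 0.05. *Gpx2* is filled on both scales in both strains, at 0.88 and 0.90 as deposited and 0.52 and 0.64 after centring, and *Noxo1* and *Cyba* are filled in *Eeyore* mice only as deposited.

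*Cyba* was read beside the other genes of the oxidase family, since p22phox is shared among their complexes. Of 12 genes listed for the NADPH oxidase family and its partners, 9 have a probe set and 6 were tested. In *Eeyore* mice 3 were higher and 0 lower, with a median log2 difference of 0.66, and in *Winnie* mice 2 were higher and 0 lower, with a median of 0.08. Among all tested genes, 14.0% were higher and 16.6% lower in *Eeyore*, and 11.3% and 11.9% in *Winnie* mice. Counts over 6 genes describe these genes only. *Cybb*, the catalytic gp91phox, had signals of 369, 817 and 897 in *Eeyore* mice, 354, 439.9 and 368 in *Winnie* mice and 355, 261 and 412 in wild-type mice. *Eeyore* mouse 1 lay within the wild-type range and the other two far above it, and the log2 difference from wild-type was 0.94 ± 0.30 (SE, adjusted p = 0.0353 in limma's test). That call ended without *Eeyore* mouse 2 or 3 (adjusted p = 0.125 and 0.126) without wild-type mouse 1 or 2 (0.0704 and 0.13), and on the scale of the epithelial markers (0.142). The other probe sets of *Cybb* were not called.

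*Ncf4*, the cytosolic p40phox, had signals of 278, 596 and 696 in *Eeyore* mice, 263, 303 and 231 in *Winnie* mice and 72.2, 149 and 12.8 in wild-type mice. It was higher in both strains, with log2 differences of 3.24 ± 0.69 (SE, adjusted p = 0.00474) in *Eeyore* and 2.36 ± 0.69 (adjusted p = 0.0298) in *Winnie* mice, whose size is imprecise because wild-type mouse 3 was near the dimmest signals. The *Winnie* call was lost without any 1 of the *Winnie* mice or without wild-type mouse 1 (adjusted p from 0.0515 to 0.0867), and without wild-type mouse 3 the differences were 2.23 in *Eeyore* and 1.35 in *Winnie* mice, against 4.0036 and 3.12 without wild-type mouse 2. *Ncf1*, the organizer p47phox, had 195, 466 and 425 in *Eeyore* mice against 225, 188 and 167 in wild-type mice, and *Rac2*, the haematopoietic small GTPase of the complex, had 209, 639 and 620.0 in *Eeyore* mice against 340.5, 315 and 273 in wild-type mice. Neither was called, and both show the same split, with *Eeyore* mouse 1 low and mice 2 and 3 high. *Rac1*, the widely expressed GTPase that also serves Nox1, was higher in both strains, by 0.50 ± 0.13 (adjusted p = 0.0122) in *Eeyore* and 0.39 ± 0.13 (adjusted p = 0.0471) in *Winnie* mice. Centred on the epithelial markers it was called in neither (adjusted p = 0.436 in *Eeyore* and 0.475 in *Winnie* mice), and its *Winnie* call was also lost without *Eeyore* mouse 2, *Winnie* mouse 2 or 3 or any 1 of the wild-type mice (adjusted p from 0.0577 to 0.164). Those values are from the brightest probe set of *Rac1*. A dimmer one read 9810, 11377 and 11068 in *Eeyore* and 8739, 11441 and 8970 in *Winnie* mice. In wild-type mice that probe set read 6644, 6566 and 6514, below every mutant mouse. *Cybc1*, the chaperone of the gp91phox and p22phox pair, was not called in either strain. *Duox1*, *Duoxa1* and *Nox4* were too dim to test.

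The macrophage markers were read beside these genes, and in *Eeyore* mice their summed signal over 8 genes varied mainly through *Lyz2*. The sum was 7545, 12076 and 15658 in *Eeyore* mice 1, 2 and 3, 8172, 10078 and 8737 in *Winnie* mice and 7519, 7612 and 7046 in wild-type mice. *Lyz2* alone gave 4631, 7859 and 10788 in *Eeyore*, 4117, 4931 and 4762 in *Winnie* and 3768, 3886 and 3159.5 in wild-type mice. Of the 8 markers, 6 did not pass in *Eeyore* mice, 1 was higher and 1 lower: *Lyz2* rose by 1.03 ± 0.23 (log2, SE, adjusted p = 0.00634) and *Cd163* fell by 1.45 ± 0.48 (adjusted p = 0.0408). *Adgre1*, which encodes F4/80, and *Csf1r* were not called. The part of macrophages in the *Cyba* signal was not tested.

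**Figure D3:**
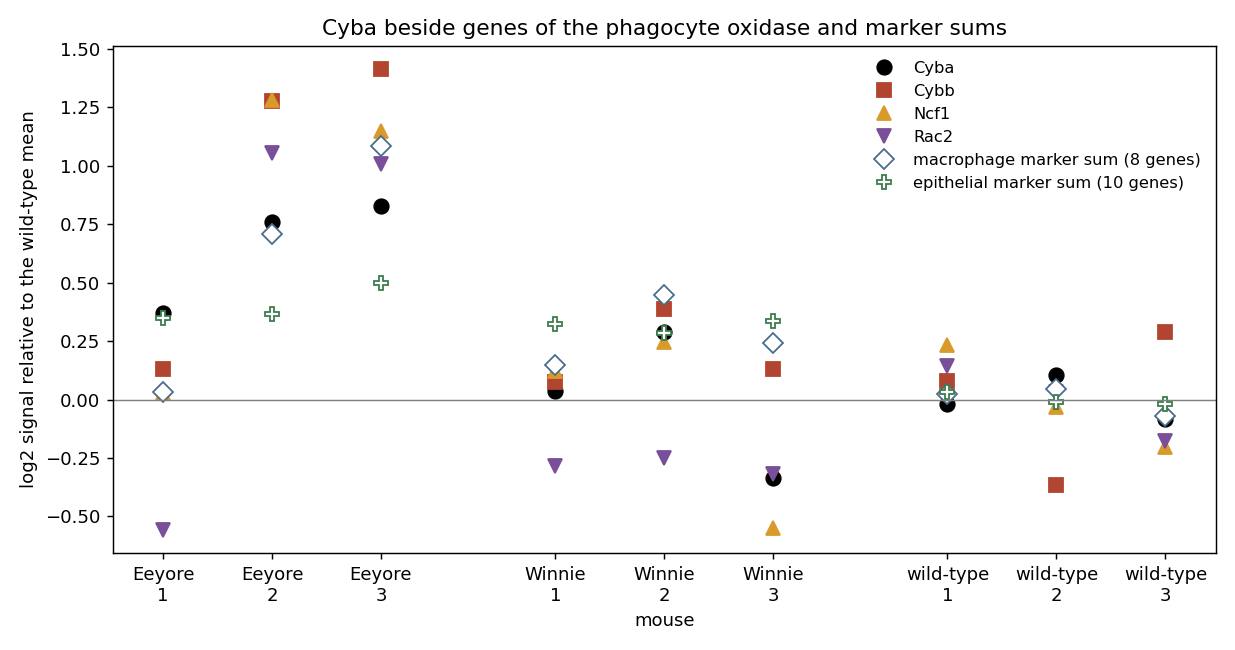
Log2 signal of *Cyba*, 3 further genes of the phagocyte oxidase and 2 marker sums in each mouse, each relative to its own wild-type mean. *Cybb*, *Ncf1*, *Rac2* and the macrophage sum are close to or below their wild-type means in *Eeyore* mouse 1 and well above them in *Eeyore* mice 2 and 3, while *Cyba* and the epithelial sum are above theirs in all 3 mice. *Eeyore* mouse 1 is also the lowest of the 3 for *Cyba* (3843, against 5043 and 5279). The epithelial sum is 235013, 238367 and 260735 in *Eeyore* mice 1, 2 and 3. In *Winnie* mice it is also above every wild-type mouse (224770 to 233121 against at most 188617), while *Cyba* lies on both sides of wild-type there. *Ncf4*, not drawn, had 278, 596 and 696 in *Eeyore* against 72.2, 149 and 12.8 in wild-type mice, with *Eeyore* mouse 1 also above wild-type.

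The other enzymes that make or use peroxide differed in both directions. Of 18 genes listed, 15 have a probe set and 13 were tested. In *Eeyore* mice 3 were higher and 2 lower (median log2 difference 0.05), and in *Winnie* mice 1 was higher and 1 lower (median 0.002). The shares over all tested genes were 14.0% higher and 16.6% lower in *Eeyore*, and 11.3% and 11.9% in *Winnie* mice. Counts over so few genes describe this list only. The largest difference in this list was in *Lpo*, lactoperoxidase, a secreted peroxidase that uses hydrogen peroxide. It had 15675, 15505 and 11663 in *Eeyore* mice, 984, 823 and 955 in *Winnie* mice and 789.8, 726 and 468 in wild-type mice. The *Eeyore* mice stood 21.9-fold above wild-type (4.46 ± 0.19 on the log2 scale, SE, adjusted p = 5.16e-08) and 15.4-fold above *Winnie* mice (3.95 ± 0.19, adjusted p = 2.16e-07), while the *Winnie* difference from wild-type was 0.51 ± 0.19 (adjusted p = 0.0745). *Eeyore* mice alone have the NOD-SCID background, which cannot be told apart from the allele here.

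*Gpx1*, the ubiquitous cytosolic glutathione peroxidase, was higher, at 16794, 17499.7 and 17842 in *Eeyore* mice against 14185, 13113 and 12866 in wild-type mice (log2 difference 0.38 ± 0.07, SE, adjusted p = 0.00273). *Prdx4*, the peroxiredoxin of the endoplasmic reticulum, was also higher, at 2751, 3049 and 2456 in *Eeyore* mice against 1871, 1609 and 1817 in wild-type mice (0.64 ± 0.16, adjusted p = 0.0105). Both calls were lost when arrays were centred on the epithelial markers (adjusted p = 0.916 for *Gpx1* and 0.227 for *Prdx4*). *Gpx8*, a glutathione peroxidase of the endoplasmic reticulum membrane, fell in both strains, at 283, 265 and 283 in *Eeyore* and 261, 292 and 391 in *Winnie* mice against 572, 579 and 738 in wild-type mice (adjusted p = 0.0012 in *Eeyore* and 0.0043 in *Winnie* mice). Catalase (*Cat*) fell in *Eeyore* mice (log2 difference -0.67 ± 0.17, adjusted p = 0.0129), a call that ended without wild-type mouse 3 (0.051), and its dimmer probe set was not called. *Sod3*, the extracellular superoxide dismutase, was higher in *Winnie* mice by 1.02 ± 0.32 (adjusted p = 0.0393), which did not hold without *Winnie* mouse 1 or 2 or any 1 of the wild-type mice (adjusted p from 0.0541 to 0.159) or on the scale of the epithelial markers (0.101). *Sod1*, *Sod2*, *Gpx3*, *Gpx4*, *Gpx7*, *Prdx2* and *Prdx3* were called in neither strain. For *Prdx2* a dimmer probe set disagreed, at 348, 74.8 and 61.0 in *Eeyore* against 1240.2, 1432 and 1249 in wild-type mice, where the brighter one had a log2 difference of 0.17. A dimmer probe set of *Sod1* also disagreed, at 206, 60.1 and 72.8 in *Winnie* against 372, 278 and 213 in wild-type mice (log2 difference -1.54, adjusted p = 0.0236), where the brightest had -0.03. *Mpo* and *Epx*, the peroxidases of neutrophils and eosinophils, were too dim to test.

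Around *Nos2*, the genes of nitric oxide and arginine metabolism moved in both directions. Of 11 listed, 11 have a probe set and 9 were tested, with 2 higher and 3 lower in *Eeyore* and 2 higher and 1 lower in *Winnie* mice (median log2 differences -0.26 and -0.26). For all tested genes the shares were 14.0% higher and 16.6% lower in *Eeyore*, and 11.3% and 11.9% in *Winnie* mice. Counts over 9 genes describe these genes only. *Gch1*, which makes the first step towards the cofactor tetrahydrobiopterin, had 3005, 2316 and 2332 in *Eeyore*, 2528, 2990.1 and 2013 in *Winnie* and 1042, 814 and 995 in wild-type mice. Neither mutant group overlapped wild-type, and the log2 differences were 1.42 ± 0.17 (SE, adjusted p = 0.000138) in *Eeyore* and 1.39 ± 0.17 (adjusted p = 0.000309) in *Winnie* mice. *Ddah1*, which breaks down methylated arginines that inhibit nitric oxide synthases, rose by 0.78 ± 0.09 (adjusted p = 0.000128) in *Eeyore* and 0.95 ± 0.09 (adjusted p = 8.41e-05) in *Winnie* mice. The calls of *Gch1* and *Ddah1* in both strains held under all 20 alternatives that test single genes, centring on the epithelial markers included.

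*Arg2*, the mitochondrial arginase, fell in *Winnie* mice, at 303, 81.7 and 137 against 493, 538 and 319 in wild-type mice (log2 difference -1.55 ± 0.39, SE, adjusted p = 0.0151), and had 612, 526 and 455 in *Eeyore* mice. The strains differed by 1.81 ± 0.39 (*Eeyore* minus *Winnie*, adjusted p = 0.0303). Leaving out wild-type mouse 1 or 2 ended the *Winnie* call (adjusted p = 0.0552 and 0.0623), and leaving out any 1 of the *Eeyore* mice, *Winnie* mouse 2 or 3, or wild-type mouse 2 ended that between the strains (from 0.0507 to 0.12). *Arg1*, the cytosolic arginase, had 84.3, 40.9 and 44.0 in *Eeyore*, 64.6, 348 and 57.0 in *Winnie* and 1379, 1503 and 106 in wild-type mice. It fell in *Eeyore* mice (log2 difference -3.50 ± 0.93, adjusted p = 0.0146), with wild-type mouse 3 apart from the other two and the *Eeyore* signals near the dim end. Without wild-type mouse 1 or 2 the adjusted p was 0.0653 and 0.0705, and leaving out 1 mouse moved the difference between -4.75 and -2.84. In *Winnie* mice *Arg1* was not called (adjusted p = 0.0762) but was without *Winnie* mouse 2 (0.0383) or wild-type mouse 3 (0.00417). *Nos3*, the endothelial synthase, fell in *Eeyore* mice to 50.3, 64.9 and 34.1, against 176, 219 and 177 in wild-type mice (adjusted p = 0.00391). Of the endothelial markers, *Kdr* and *Tek* fell beside it there (adjusted p = 0.0019 and 0.0096), and their part in the fall of *Nos3* was not tested. *Cdh5* and *Pecam1*, also listed for endothelium, were too dim to test. Mean signals of these were 107.6 and 87.7 in *Eeyore* against 110.1 and 97.9 in wild-type mice. *Nos1*, the neuronal synthase, was called lower in *Eeyore* mice (adjusted p = 0.0439) but the call ended without *Eeyore* mouse 1 or any 1 of the *Winnie* or wild-type mice (adjusted p from 0.0516 to 0.112). Its dimmer probe sets were under the filter and differed among themselves. One read 193, 10.5 and 29.3 in *Eeyore* and 53.0, 57.2 and 54.9 in *Winnie* against 275, 237 and 276 in wild-type mice. Another overlapped, at 97.1, 78.2 and 18.9 in *Eeyore* and 28.0, 56.2 and 84.1 in *Winnie* against 85.9, 85.2 and 59.8 in wild-type mice.

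**Figure D4:**
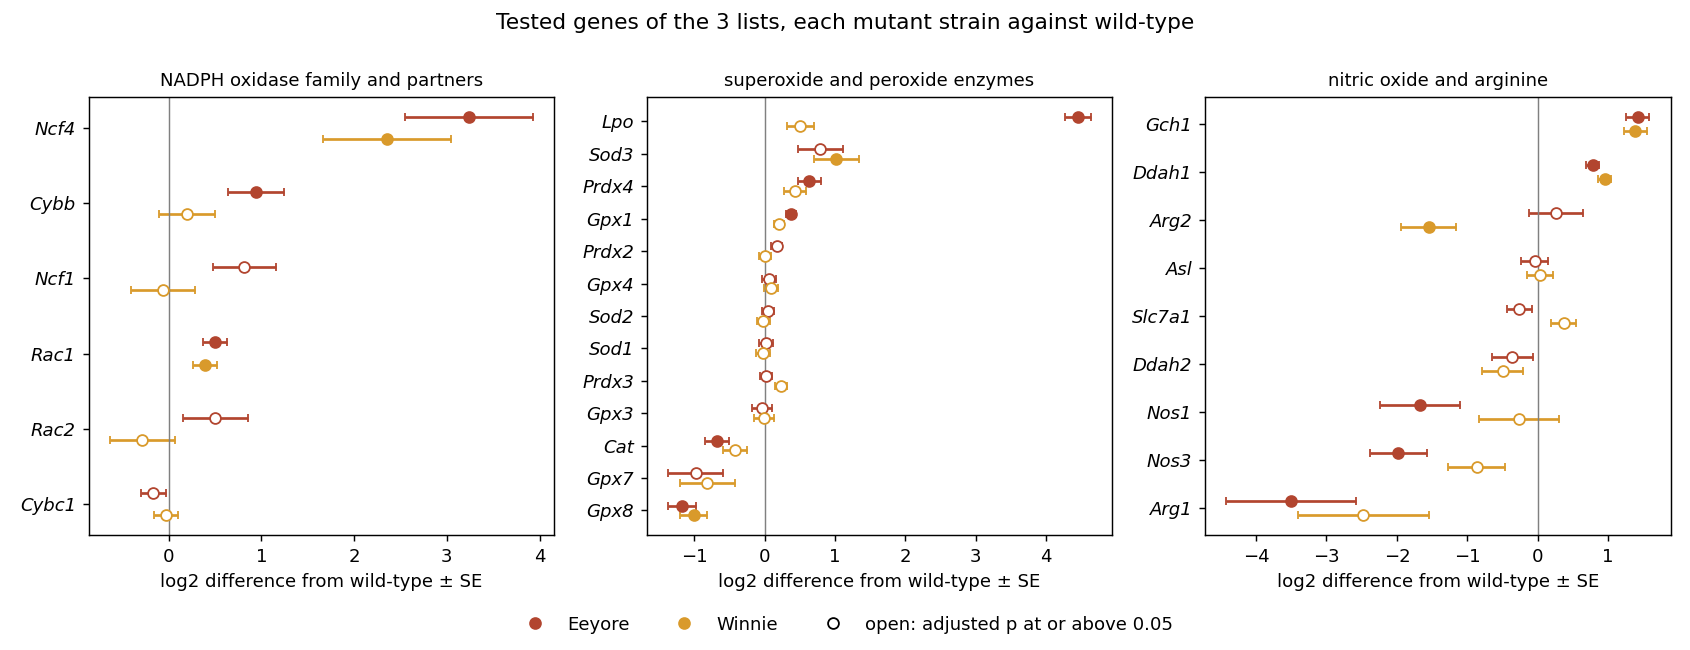
Log2 difference from wild-type (± SE of the fit, n = 3 mice per group) of the tested genes of the 3 lists, *Eeyore* above *Winnie* for each gene. Filled symbols have an adjusted p under 0.05. *Lpo* at 4.46 in *Eeyore* and 0.51 in *Winnie* mice and *Arg2* at 0.26 in *Eeyore* and -1.55 in *Winnie* mice are the genes called between the strains.

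Among the other tested genes, the patterns most like those of the members over the 9 mice were found by the root mean square of the log2 difference between 2 genes, each centred on its own mean. Nearest to *Gpx2* were *Cenpa*, *Ranbp1* and *Mcm3* (0.0968, 0.0991 and 0.106 log2 units), which encode a centromere histone, a regulator of the Ran GTPase and a replication helicase subunit. In each of them *Winnie* mouse 2 was the highest mouse, as for *Gpx2*. Nearest to *Noxo1* were *Cxcl16*, *Gmds* and *Gsdmd* (0.0867, 0.088 and 0.0896), which encode a chemokine, an enzyme of GDP-fucose synthesis and gasdermin D. Nearest to *Cyba* were *Nek4*, *Naa60* and *Insl6* (0.102, 0.131 and 0.142), and nearest to *Duoxa2* were *Tspan4*, *C1ra* and *Lox* (0.15, 0.175 and 0.181). Likeness over 9 mice in 3 groups is a description of these arrays.

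Some features of the libraries touch every comparison with wild-type. The median signal of an array was 87.9 to 99.3 in mutant and 118 to 129 in wild-type mice, so that dim signals stood lower in the mutants as a whole. *Winnie* mouse 2 was the highest *Winnie* mouse for the 4 tested members, and also had the highest summed signal of 7 neutrophil markers, 4953, against 751 and 1130.2 in the other *Winnie* mice. The 2 leading neutrophil markers, *S100a8* and *S100a9*, were higher in both strains, and *Ltf*, the other one tested, was called in neither, at 55.7, 125 and 243 in *Eeyore*, 97.1, 468 and 117 in *Winnie* and 672, 914 and 60.1 in wild-type mice. *Retnlg* was not analysed here, and *Csf3r*, *Cxcr2*, *Ngp* and *Camp* were too dim to test. The sum of 4 posterior large intestine markers was likewise highest in *Winnie* mouse 2 within its group (4811, 10732 and 7287). It was 7688, 8504 and 12285 in *Eeyore* and 6723, 6989 and 8645 in wild-type mice. Of the 3 markers tested, 0 were called in either strain, and *Hoxa13* was lowest in *Winnie* mouse 2 (200, 180 and 198). The part of gut region in the member signals was not tested. Without *Winnie* mouse 2, *Gpx2* was still called in *Winnie* mice (log2 difference 0.70, adjusted p = 0.00135). Nothing in the labels says whether the 3 mice of a group came from separate litters, so the p-values measure the spread between these mice.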

How the data were processed

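Total RNA of whole large intestine was hybridised to 9 Affymetrix mouse arrays, 1 per mouse. The authors deposited 1 linear signal intensity per probe set and array, and on every array the mean after removal of the outer 2% at each end is 500. The algorithm behind the signal is not given in the sources used here, and no genome build enters it. No detection calls were used.

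Of 45101 probe sets, 64 controls were left out. The log2 of each intensity was taken with no further scaling, and 22519 of 45037 probe sets were tested, those whose mean reached the 50th percentile, or a signal of 85.9. The platform annotation pairs 34945 probe sets with 1 symbol, 932 with several and 9160.0 with none. A gene is its brightest probe set with that symbol alone. Groups were fitted over all 9 arrays by lmFit and trended eBayes (limma 3.58.1, R 4.3.3), and p-values were adjusted by Benjamini-Hochberg over all tested probe sets, with a threshold of 0.05. The fit was tested on simulated data. Precision is limited by 3 arrays per group.

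The 7 genes, the lists around them and the markers were chosen with earlier results of these data known. The genes named are the 7, those of the 3 lists, and the 3 nearest in pattern to each. The alternatives tried were a filter at the 75th percentile or none, quantile normalization, median centring, an offset of 32, no intensity trend, a robust variance model, the compared groups only, mouse number as a block, a 2-fold minimum and leaving out each mouse. Centring on the tested probe sets and on 10 epithelial markers were added after the values were seen. Promoter motifs were matched with Python 3.11.15, and figures drawn with matplotlib 3.10.9.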

Additional observations from a re-analysis of the deposited data

Results flagged for a closer look

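Both results below are differences of *Eeyore* from *Winnie* mice that passed limma's test of the difference itself, over the genes of the 3 lists. *Lpo* was higher in *Eeyore* than in *Winnie* mice by 3.95 on the log2 scale (adjusted p = 2.16e-07), with 15675, 15505 and 11663 in *Eeyore* mice against 984, 823 and 955 in *Winnie* mice. It was called under every alternative that tests single genes. *Arg2* was higher in *Eeyore* than in *Winnie* mice by 1.81 on the log2 scale (adjusted p = 0.0303), with 612, 526 and 455 in *Eeyore* mice against 303, 81.7 and 137 in *Winnie* mice. With only these 2 groups fitted the adjusted p was 0.0623, and leaving out 1 mouse gave 0.00227 to 0.12. Its dimmer probe set differed by 3.20 with an adjusted p of 0.0866. Allele and strain background cannot be told apart for either gene.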

How the results depend on the processing

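The calls of *Gpx2* in both strains held under all 20 alternatives that test single genes, and those of *Noxo1* and *Cyba* in *Eeyore* mice under all but centring on the epithelial markers. With median centring, which moved the median over all tested probe sets to 0.24 in *Eeyore* and 0.32 in *Winnie* mice, the count of probe sets called in *Winnie* mice was 8087 against 4834, and 2 members were called there in place of 1, *Noxo1* being the second (log2 difference 0.72, adjusted p = 0.00257). Centring on the tested probe sets also called 2 (*Noxo1* at 0.45, adjusted p = 0.0314). Median centring gave the calls *Sod1* 0.38, *Sod2* 0.39 and *Gpx3* 0.40 in *Winnie* mice, each with the opposite sign as deposited. Centring on the epithelial markers, which moved the median of all tested probe sets to -0.46 in *Eeyore* and -0.35 in *Winnie* mice, called 9893 probe sets in *Eeyore* mice against 6589, and 1 member there in place of 3. It called *Sod1* -0.34, *Sod2* -0.32, *Gpx4* -0.31 and *Prdx3* -0.34 in *Eeyore* mice and *Prdx2* -0.26 in *Winnie* mice, with the opposite sign as deposited. Of the probe sets called as deposited, 2747 were higher and 3842 lower in *Eeyore*, and 2195 higher and 2639 lower in *Winnie* mice. Median centring gave 6350.0 higher and 1877 lower in *Eeyore* and 7234 higher and 853 lower in *Winnie* mice, centring on the tested probe sets 4489 and 2625 in *Eeyore* and 3589 and 1735 in *Winnie* mice, and centring on the epithelial markers 759 and 9134 in *Eeyore* and 797 and 6318 in *Winnie* mice.

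At a minimum of 2-fold, 0 members were called in *Eeyore* and 0 in *Winnie* mice, and the counts of probe sets were 2447 in *Eeyore*, 1541 in *Winnie* and 275 between the strains. A filter at the 75th percentile left 4326 in *Eeyore* mice, since fewer probe sets are tested, and called 1 member between the strains, as did a robust variance model (*Cyba*, adjusted p = 0.049 and 0.0443). No intensity trend left 282 between the strains against 519, and the cause was not tested. Leaving out each mouse gave 2900.0 (without wild-type mouse 2) to 5203 probe sets in *Winnie* mice, 4466 to 6804 in *Eeyore* mice, 297 (without *Winnie* mouse 3, 332 without *Eeyore* mouse 2) to 858 (without *Eeyore* mouse 1) between the strains, and 0 to 1 member between the strains. Without *Winnie* mouse 2 or wild-type mouse 1, 3168 and 3016 were called in *Winnie* mice. With mouse number as a block, *Winnie* mice had 4872 and no member call changed. In deviations from group means, 7 of 9 same-number array pairs correlated above 0. *Winnie* with wild-type gave 0.068 to 0.16, at other numbers -0.095 to 0.02. Pairing was not tested. The block called *Lpo* (0.0429) and *Arg1* (0.0364) in *Winnie* mice and ended *Nos1* in *Eeyore* mice (0.0511). Beside leaving out a mouse, calls of *Rac1* (both strains) and *Nos1* ended under quantile normalization, *Cat* and *Nos1* under median centring, *Rac1* and *Sod3* in *Winnie* mice and *Nos1* with no filter, and *Arg1* in *Eeyore* and *Ncf4* in *Winnie* mice under a robust variance model. No intensity trend ended *Cybb* and *Nos1* in *Eeyore*, *Ncf4* and *Sod3* in *Winnie*, *Rac1* in both and *Arg2* between the strains. Fitting only the 2 groups compared ended *Cybb* (0.0567) and *Nos1* (0.0777) in *Eeyore* mice and *Arg2* between the strains (0.0623), and centring on the tested probe sets ended *Nos1* (0.0639). Each measured member has 1 probe set, so a mean over probe sets would be the same. For the genes of the 3 lists no mean over probe sets was tried. Signals under about 41.1 are too dim to rank, *Nos2* among them.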
